A study of Pelodiscus sinensis with 8 samples.

Results

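The 4 interdigital webs of the turtle hindlimb were compared along the axis from digit I to digit V. The tissue came from embryos of the Chinese soft-shell turtle (Pelodiscus sinensis), an aquatic species with webbed feet, at stage 19 of the Tokita-Kuratani series. The hindlimb libraries are 4 of 8 in the data, and the other 4 come from the forelimb webs. Web 1 lies between digits I and II, web 2 between digits II and III, web 3 between digits III and IV, and web 4 between digits IV and V. Each library is a pool of 40 pieces of tissue, left and right, cut from 20 wild type individuals. The labels carry the tag "anti-ICD" for the hindlimb pools and "ICD" for the forelimb pools, and do not say what it stands for. Every web has 1 library, so a web and its pool cannot be told apart.

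The axis across the digits is the anterior to posterior axis of the limb. In amniote limb buds, Sonic hedgehog from the posterior margin and the HOXD genes pattern this axis, with HAND2 and TBX2 on the posterior side. The mesenchyme between the digits later either regresses by cell death or persists as a web. In chick and mouse, BMP signals and retinoic acid promote that regression and FGF signals oppose it. Interdigital tissue also conveys to the neighbouring digit which shape it takes, as experiments in chick showed.

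For each gene a straight line was fitted to expression on web number from 1 to 4, and its slope is given in log2 units per web, positive toward digit V, with its standard error (SE). The fit leaves 2 residual degrees of freedom. Its p-values therefore set the slope against how far the 4 pools depart from a line, a spread estimated partly across genes. They do not measure how much animals differ. A gene is said to rise or fall where edgeR's quasi-likelihood test gave a Benjamini-Hochberg adjusted p under 0.05. Levels are CPM, a gene's count relative to its library's total after TMM scaling, and are given in the order web 1 to web 4. The libraries held 53116512 to 55385613 counts.

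Of 14478 genes tested, 1068 (7.38%) had a slope that passed. Of all tested genes 478 (3.3%) rose toward digit V and 590 (4.08%) fell. The fitted change from web 1 to web 4 was at least 2-fold in 158 of the rising and 382 of the falling genes. Most of the genes that passed changed in the same direction at every step: 394 (82.4%) of the rising genes were higher at each of the 3 steps, against 9.5% of all tested genes. Of the falling genes 418 (70.8%) were lower at each step, against 9.26% of all. Because the line was fitted to the same 4 values, such high shares follow from the selection and carry no test. Without web 1 the test called 416 genes, of which 333 were among the 1068, and without web 4 it called 597, of which 446 were among them. Leaving out a library leaves fewer points for the line, so here and below a call can end without a weaker slope. Calls also ended in settings that kept all 4 libraries, and not every such loss is listed below. Of 104 named genes that passed, 29 kept their call in every alternative that tested them. On the log2(TPM + 1) scale limma called 213 rising and 438 falling genes, so that 32.7% of its calls were rising, against 44.8% in edgeR.

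The libraries lay in the order of the webs. On the first principal component of log2 CPM, which held 53% of the variance, webs 1 to 4 stood at -51.9, -20.4, 22.1 and 50.3. Neighbouring webs correlated at 0.975 to 0.977 across genes, webs 2 apart at 0.966 and 0.969, and webs 1 and 4 at 0.958. The hindlimb factors TBX4 and PITX1 were read in the hindlimb libraries alone, so their levels do not check the limb label. The hindlimb factor TBX4 had 159, 159, 159 and 129 CPM. PITX1, which acts upstream of TBX4, had 53.8, 106, 148 and 107 CPM. Neither slope passed, with -0.09 ± 0.0405 for TBX4 (adjusted p = 0.24) and 0.35 ± 0.123 for PITX1 (adjusted p = 0.13). The slope of PITX1 passed in 2 of 14 alternatives, across which it ranged from 0.0072 to 0.73.

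The steepest rising genes included limb transcription factors and genes better known from mineralised or nervous tissue. They were chosen as the 10 steepest genes that passed, held a symbol and averaged at least 2 CPM. SP9, a zinc finger factor that maintains the apical ectodermal ridge in other vertebrates, had 0.0738, 0.660, 2.76 and 7.21 CPM. It rose by 1.99 ± 0.208 log2 units per web (SE, adjusted p = 0.00078) and had the steepest slope of the 10. Its level in web 1 rests on 4 counts.

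PHEX, a membrane peptidase of phosphate balance and bone mineralisation, had 5.48, 8.01, 46.8 and 130 CPM, with a slope of 1.63 ± 0.122 (adjusted p = 0.00019). Webs 1 and 2 were low and webs 3 and 4 high. CNTN5, an adhesion protein of the nervous system, had 10.9, 13.9, 35.6 and 89.7 CPM and a slope of 1.05 ± 0.0865 (adjusted p = 0.00027). GABRR2, a subunit of a GABA-gated chloride channel, had 0.775, 3.24, 6.29 and 17.1 CPM and a slope of 1.40 ± 0.118 (adjusted p = 0.00032). The glutamate receptor subunit GRIA2, named for its step between webs, also rose, with 3.56, 4.62, 14.2 and 19.4 CPM. HOXD11, HOXD10 and HAND2, described below, and C1QTNF7, BPIFC and P2RY2 completed the 10. P2RY2, a nucleotide receptor, had 0.609, 1.72, 2.69 and 4.94 CPM.

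**Figure D1:**
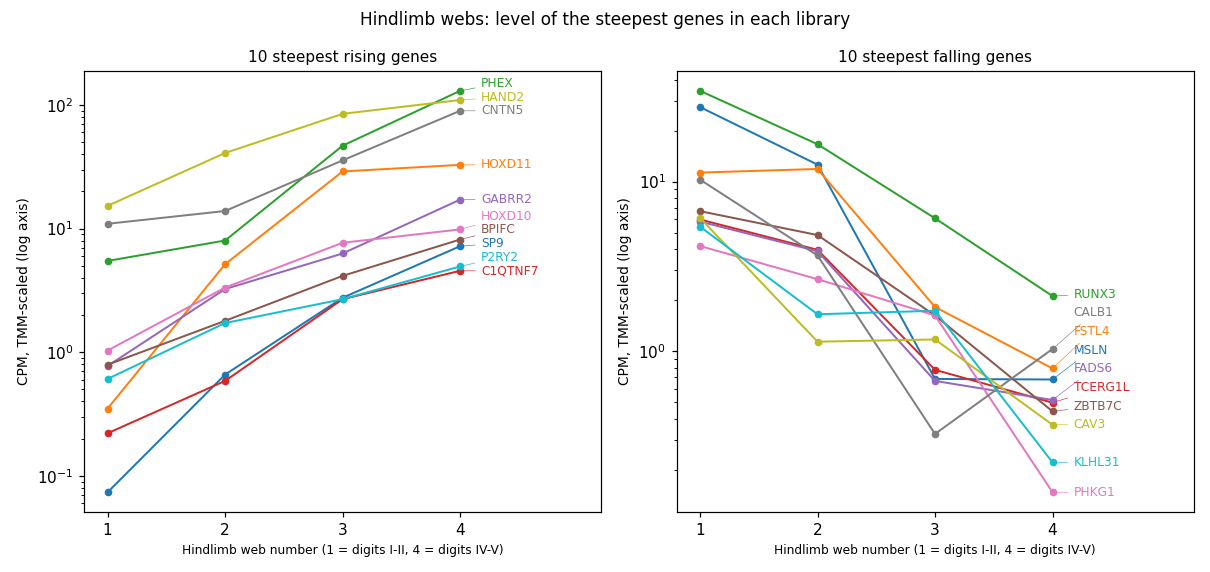
Level of the 10 steepest rising genes (left) and the 10 steepest falling genes (right) in each hindlimb web, in TMM-scaled CPM on a log axis against web number; each point is 1 library and there is no replicate. PHEX goes from 5.48 to 130 CPM and RUNX3 from 34.3 to 2.11 CPM, while CALB1 turns upward at web 4.

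The steepest falling genes were led by MSLN, FSTL4 and RUNX3. MSLN, which encodes the surface protein mesothelin, had 27.5, 12.6, 0.685 and 0.680 CPM and fell by 2.03 ± 0.254 log2 units per web (adjusted p = 0.0018). RUNX3, a Runt factor of cartilage, sensory neurons and leukocytes, had 34.3, 16.6, 6.08 and 2.11 CPM. It fell at each step by more than 1 log2 unit and had a slope of -1.34 ± 0.0803 (adjusted p = 5.6e-05). FSTL4, a follistatin-like protein, stood at 11.3 and 11.9 CPM in webs 1 and 2 and at 1.82 and 0.790 CPM in webs 3 and 4. Of the other steep genes CAV3, PHKG1 and KLHL31 act in skeletal muscle, and CAV3 had 6.11, 1.14, 1.17 and 0.368 CPM. CALB1, a calcium-binding protein, had 10.3, 3.67, 0.325 and 1.03 CPM, so its lowest level was in web 3.

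Some of these steep calls did not hold in every setting or without each library. Where a call ended without web 1 the slope was not always weaker. That of PHKG1 was then -1.89, against -1.28 with all 4 libraries, and that of CAV3 was -0.79, against -1.24. With a robust prior the adjusted p was 0.0892 for PHEX, 0.184 for MSLN, 0.124 for FSTL4 and 0.268 for CALB1. The call of CALB1 also ended in DESeq2 (0.170), in the fit over both limbs (0.126) and on the TPM scales (up to 0.104). In the fit over both limbs the adjusted p was 0.0721 for CAV3, 0.103 for KLHL31 and 0.119 for PHKG1. Without web 4 it was 0.0518 for FSTL4. Without web 1 it was 0.115 for P2RY2, 0.0594 for FADS6, 0.0983 for PHKG1, 0.632 for CAV3, 0.371 for KLHL31 and 0.428 for CALB1. Without web 4 it was 0.135 for P2RY2, 0.158 for PHKG1 and 0.0939 for KLHL31, and without web 2 it was 0.0708 for PHKG1 and 0.0523 for CALB1. C1QTNF7, GABRR2, BPIFC, CNTN5, RUNX3, TCERG1L and ZBTB7C kept their calls in all 14 alternatives tried, and SP9 in the 13 that tested it, since a filter that asks for enough counts in all 4 libraries removed it.

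The posterior limb factors had a summed level of 86.5, 137, 204 and 261 CPM. Of 6 tested, 2 rose and 1 fell, against 3.3% rising and 4.08% falling among all tested genes. This list and those below were chosen with earlier results of these data known. The shares of their genes that passed therefore carry no test. The median slope was 0.33, against 0.00 for all tested genes. HAND2, which activates Sonic hedgehog in the posterior limb bud, had 15.3, 40.9, 84.7 and 110 CPM and a slope of 0.95 ± 0.0933 (adjusted p = 0.00056). TBX2, a T-box repressor expressed in the posterior interdigit of other amniotes, had 26.4, 41.4, 64.0 and 102 CPM and rose in nearly even steps of 0.65, 0.63 and 0.67 log2 units (slope 0.65 ± 0.0384, adjusted p = 5.6e-05). SALL1, a zinc finger factor of limb patterning, went the other way with 16.0, 10.8, 5.16 and 5.35 CPM and fell by 0.58 ± 0.0995 (adjusted p = 0.0082). SHH itself was at 0 counts in all 4 hindlimb libraries, while GREM1, a BMP antagonist that it maintains, had 18.6, 32.8, 37.4 and 34.0 CPM and did not pass (adjusted p = 0.11). With a robust prior the adjusted p of HAND2 was 0.0659, and without web 1 that of SALL1 was 0.187. GREM1 passed in 2 of 14 alternatives.

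The slopes of HOXD10 to HOXD13 ranged from near level to among the steepest. HOXD13, which patterns the digits, was nearly level at 425, 526, 493 and 520 CPM (slope 0.08 ± 0.0403, adjusted p = 0.32). Its neighbour HOXD12 had 133, 335, 458 and 472 CPM and rose by 0.58 ± 0.110 (adjusted p = 0.012). HOXD11 had 0.351, 5.15, 29.0 and 32.8 CPM and rose by 1.98 ± 0.320 (adjusted p = 0.0058). HOXD10 had 1.03, 3.34, 7.68 and 9.85 CPM and rose by 1.07 ± 0.152 (adjusted p = 0.0032). All 3 rising genes gained most between webs 1 and 3, and HOXD11 changed by 0.18 log2 units from web 3 to web 4. Per unit of length, in TPM, web 4 held 532 of HOXD12, 221 of HOXD13, 53.7 of HOXD11 and 15 of HOXD10, and HOXD13 led in web 1 with 191. Without web 1 the adjusted p was 0.0506 for HOXD10 and 0.0743 for HOXD12, and with a robust prior it was 0.343 for HOXD12 and 0.303 for HOXD11. In the fit over both limbs it was 0.0538 for HOXD11 and 0.096 for HOXD12, so HOXD10 alone kept its call there. Of 7 tested genes at the 5' ends of the HOXA and HOXD clusters these 3 rose, against 3.3% of all genes, and none fell. Of 8 tested 3' genes none passed, against 7.38% of all. Their slopes were negative in 4 and positive in 4, with -0.36 for HOXD1 and -0.43 for HOXD3. No symbol matched HOXD9, HOXA9 or HOXA13, which are not analysed here.

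Anterior limb factors were led by LHX9, a LIM homeodomain factor, with 172, 53, 21.6 and 21.1 CPM and a slope of -1.04 ± 0.120 (adjusted p = 0.0012). Its fall was complete by web 3, with a step of -0.04 from there to web 4. The list was not uniform, since 2 of its 11 tested genes fell and 2 rose, against 4.08% and 3.3% of all tested genes. Its median slope was -0.04. MEIS1, a homeodomain factor of the proximal limb, had 125, 146, 183 and 244 CPM and a slope of 0.32 ± 0.0335 (adjusted p = 0.00077). IRX5, an Iroquois factor, had 33.3, 36.2, 40.2 and 50.9 CPM (adjusted p = 0.026), and its adjusted p was 0.124 without web 1, 0.063 without web 2 and 0.434 without web 4. SHOX, a homeobox gene of limb growth, had 4.83, 6.78, 11 and 27.1 CPM and rose by 0.83 ± 0.0890 (adjusted p = 0.00089). Of the 9 tested genes of hindlimb and proximal identity SHOX and MEIS1 rose and none fell. ALX4, a paired-type factor that limits hedgehog signalling to the posterior bud, had 1.79, 1.56, 1.01 and 0.662 CPM and did not pass (adjusted p = 0.26). With a robust prior the adjusted p of LHX9 was 0.200.

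The RefSeq annotation of assembly ASM4963464v1, used only for the order of genes, places several of these genes side by side. TBX2 lies next to TBX4, and TBX2 rose while TBX4 did not pass. HOXD13, HOXD12, HOXD11 and HOXD10 follow one another. DLX5 and DLX6 are neighbours and fell together. CYP26A1 and CYP26C1 are neighbours and rose together. P2RY2 and P2RY6 are neighbours, and P2RY6, named after its values were seen, had 1.46, 0.990, 3.91 and 8.62 CPM (slope 0.94 ± 0.182, adjusted p = 0.014). KERA and LUM lie between EPYC and DCN, and both rose while neither of the outer genes passed.

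**Figure D2:**
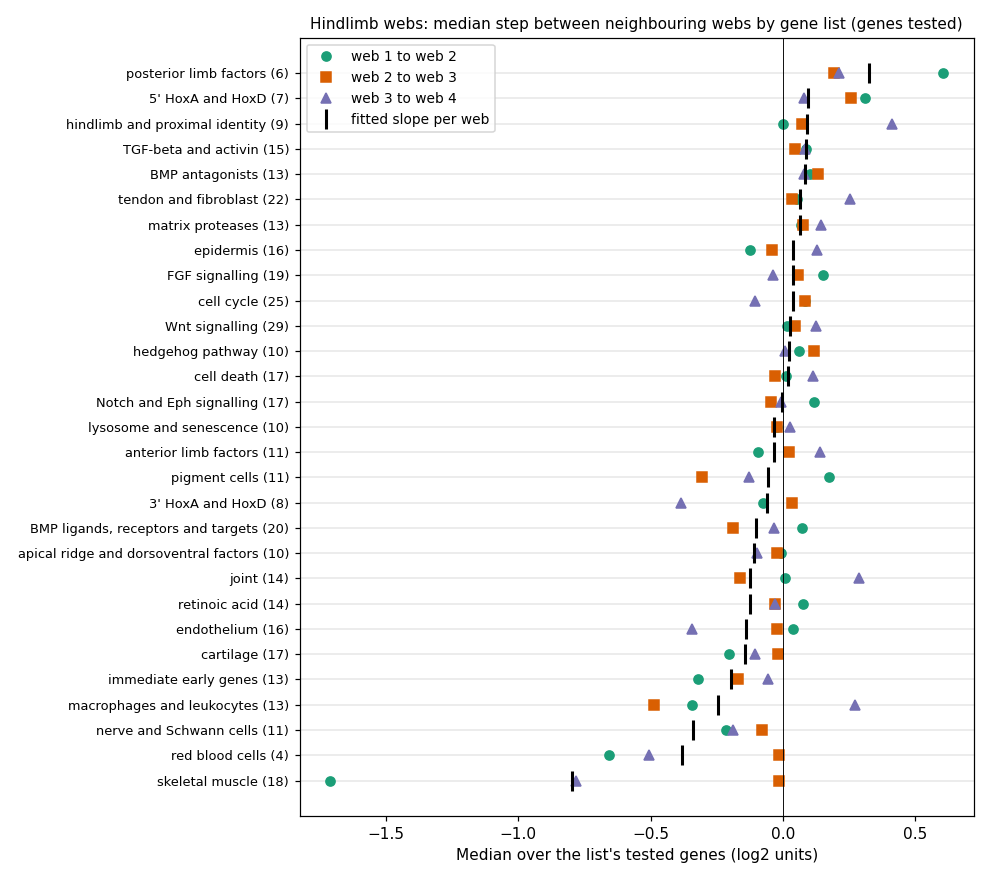
Median change at each of the 3 steps between neighbouring webs (symbols) and median fitted slope per web (bars) for 29 gene lists, in log2 units; the number of tested genes stands after each name. Skeletal muscle lies far to the left at the first step (-1.71) and near 0 at the second (-0.02), and posterior limb factors lie to the right.

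BMP genes changed in both directions. Of 20 tested genes of BMP signalling 2 rose and 5 fell, against 3.3% and 4.08% of all tested genes. Their median slope was -0.10. BMP7, a secreted BMP, had 92.2, 129, 164 and 214 CPM and rose by 0.40 ± 0.0328 (adjusted p = 0.00027). BMP5, a related ligand, had 181, 152, 110 and 87.4 CPM and fell by 0.36 ± 0.0343 (adjusted p = 0.00047). The levels of this pair thus ran in opposite directions, each in order from web 1 to web 4. BMP2 stood at 46.6, 50.8, 35.9 and 26.5 CPM and fell by 0.30 ± 0.0656 (adjusted p = 0.025), and BMP4 at 40.6, 49.1, 47.2 and 46.0 CPM did not pass (adjusted p = 0.66). MSX1 and MSX2, homeobox targets of BMP signals in the interdigit, both fell. MSX1 had 470, 451, 288 and 235 CPM (slope -0.37 ± 0.0478, adjusted p = 0.0021) and MSX2 had 927, 936, 752 and 505 CPM (slope -0.29 ± 0.0548, adjusted p = 0.011). The type I receptor BMPR1A rose from 73.9 to 113 CPM (adjusted p = 0.0078). Of 13 BMP antagonists 2 rose and none fell, and SMOC2, a secreted matrix protein, had 29.1, 31.3, 40.1 and 44.4 CPM (slope 0.22 ± 0.0459, adjusted p = 0.021). Without web 4 the adjusted p was 0.348 for BMP2, 0.312 for MSX2, 0.148 for SMOC2 and 0.0719 for BMPR1A, and without web 1 it was 0.142 for SMOC2 and 0.164 for BMPR1A. In the fit over both limbs it was 0.126 for BMP2, 0.0681 for MSX2 and 0.0521 for BMPR1A.

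The FGF ligands of the mesenchyme FGF10 and FGF7 rose, and FGF7 was named because it passed. FGF10, which maintains the apical ridge, had 52.8, 64.9, 78.8 and 96.3 CPM and steps of 0.30, 0.28 and 0.29 log2 units (slope 0.29 ± 0.0357, adjusted p = 0.0017). FGF7, a ligand of the same receptor in the epidermis, had 43.0, 56.9, 68.0 and 82.1 CPM (slope 0.31 ± 0.0391, adjusted p = 0.002). Of 19 tested FGF genes 4 rose and 1 fell, against 3.3% and 4.08% of all tested genes, and the median slope was 0.04. SPRED1, an inhibitor of the pathway, rose from 19.8 to 33.8 CPM (adjusted p = 0.013), and the receptor FGFR3 fell from 49.1 to 29.2 CPM (adjusted p = 0.014). Without web 1 only 1 gene of the list rose and FGF7 had an adjusted p of 0.0502, SPRED1 of 0.198 and FGFR3 of 0.359. Without web 4 it was 0.120 for SPRED1 and 0.0833 for FGFR3, and FGF10 kept its call in all 14 alternatives.

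The 3 enzymes that break down retinoic acid did not move together. CYP26B1 had 85.6, 69.0, 40.9 and 36.3 CPM and fell by 0.45 ± 0.0513 (adjusted p = 0.0012). CYP26A1 had 9.67, 19.0, 22.4 and 31.0 CPM and rose by 0.52 ± 0.0763 (adjusted p = 0.0037), and CYP26C1 had 1.60, 2.60, 4.58 and 7.50 CPM and rose by 0.75 ± 0.114 (adjusted p = 0.0046). In TPM, which adjusts for length, CYP26B1 fell from 26.9 in web 1 to 10.7 in web 4, whereas CYP26A1 went from 12.6 to 38.2, so their order differed at the ends of the axis. CRABP2, a carrier of retinoic acid inside the cell, fell from 2738 to 1968 CPM (slope -0.18 ± 0.0361, adjusted p = 0.017). ALDH1A2, which makes retinoic acid, had 8.62, 4.82, 5.95 and 6.05 CPM, and the receptor RARB had 68.9, 81.6, 83.1 and 56.8 CPM, and neither passed. Of 14 tested genes of this list 3 rose and 3 fell, against 3.3% and 4.08% of all tested genes. The list's median slope was -0.13. Without web 1 none of the rising calls held, and the adjusted p was 0.0679 for CYP26A1, 0.0506 for CYP26C1 and 0.0933 for CRABP2. Without web 4 it was 0.0975 for CYP26C1 and 0.0988 for CRABP2.

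**Figure D3:**
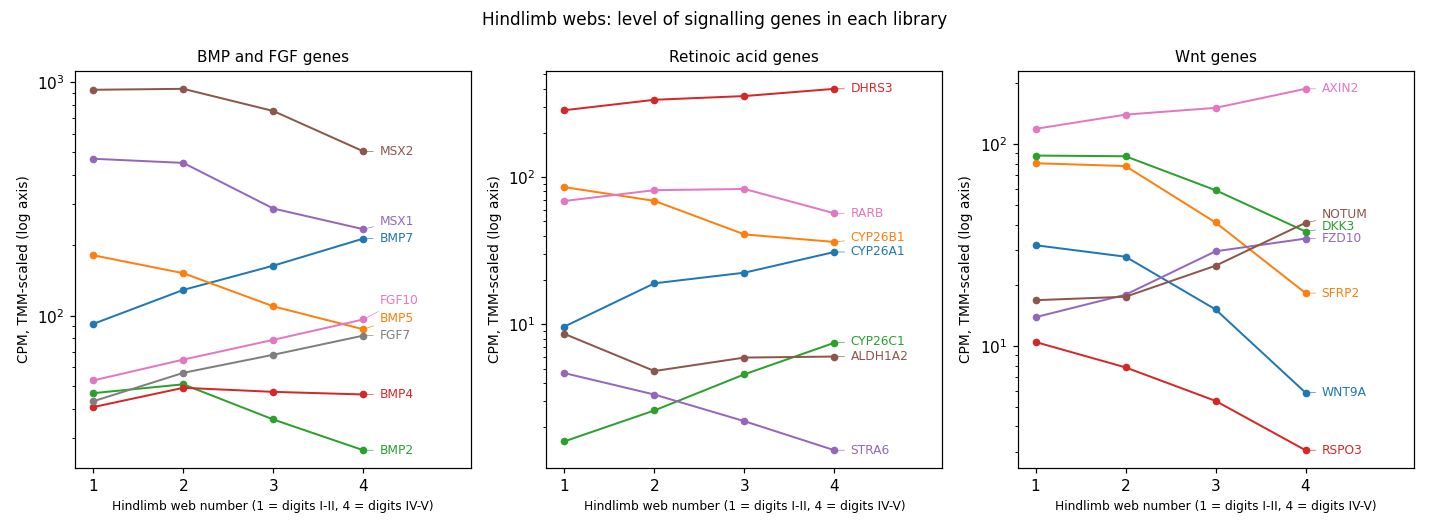
Level in each hindlimb web of BMP, MSX and FGF genes (left), retinoic acid genes (middle) and Wnt genes (right), in TMM-scaled CPM on a log axis against web number, with 1 library per point. BMP7 crosses above BMP5, CYP26A1 approaches CYP26B1 from below, and WNT9A and SFRP2 drop mostly after web 2.

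Wnt genes also moved both ways, with 7 of 29 tested genes rising and 6 falling, against 3.3% and 4.08% of all tested genes. The median slope of the list was 0.02. The ligand WNT9A, which marks forming joints, had 31.6, 27.7, 15.2 and 5.88 CPM and fell by 0.80 ± 0.112 (adjusted p = 0.0029). The secreted modulator SFRP2 had 80.5, 77.9, 40.9 and 18.3 CPM and fell by 0.73 ± 0.101 (adjusted p = 0.0028), and DKK3 had 87.8, 87.1, 59.2 and 36.9 CPM (adjusted p = 0.0045). For each of these genes webs 1 and 2 lay close together and webs 3 and 4 lower. FZD10, a Wnt receptor, went from 13.9 to 34.1 CPM with a slope of 0.46 ± 0.0609 (adjusted p = 0.0024). NOTUM and AXIN2, which Wnt signals induce as feedback inhibitors, were named after their values were seen. NOTUM had 16.9, 17.6, 25.0 and 40.8 CPM and AXIN2 had 119, 140, 151 and 188 CPM, and both rose (adjusted p = 0.0048 and 0.0055). On the log2(TPM + 1) scale 2 genes of the list rose, in the fit over both limbs 3, without web 1 3 and without web 4 3. SFRP2 had an adjusted p of 0.149 with a robust prior, and DKK3 had 0.0642 without web 4.

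The Notch target HEY1 had 117, 87.4, 46.0 and 35.7 CPM and fell by 0.61 ± 0.0503 (adjusted p = 0.00027), while its relative HEY2 had 33.2, 35.1, 61.0 and 74.3 CPM and rose by 0.43 ± 0.0573 (adjusted p = 0.0026). LFNG, a glycosyltransferase that modifies Notch, fell from 18.3 to 6.58 CPM (adjusted p = 0.0066), and the guidance receptor EPHA4 rose from 32.0 to 55.7 CPM (adjusted p = 0.01). Of 17 tested Notch and Eph genes 3 rose and 2 fell, against 3.3% and 4.08% of all tested genes. Their median slope was 0.00. Of 15 tested genes of TGF-beta and activin signalling 4 rose and 2 fell, with a median slope of 0.09. TGFB3, a ligand, had 35.5, 26.3, 11.8 and 12.4 CPM and fell by 0.57 ± 0.0877 (adjusted p = 0.0049). The rising genes were the receptors TGFBR1, TGFBR2 and TGFBR3 and the effector SMAD3, which had 204, 195, 240 and 334 CPM. Without web 4 no gene of the list rose, with an adjusted p of 0.375 for SMAD3, and without web 1 or without web 2 only 1 rose. On the TPM scales none of this list rose, and in the fit over both limbs 1 did. Without web 1 the Notch and Eph list had 1 rising gene, and the adjusted p was 0.0865 for TGFB3 and 0.163 for EPHA4, and without web 4 it was 0.102 for LFNG. In the hedgehog list DISP1 and SMO rose and CDON fell among 10 tested genes, with a median slope of 0.02 and absolute slopes of at most 0.19. Without web 1, without web 2 or without web 4 neither rising call held, and without web 4 CDON had an adjusted p of 0.146. Neither rising call held on the TPM scales, and no call of the hedgehog list held in the fit over both limbs.

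Genes of the apical ridge and the epidermis split into a falling and a rising set. DLX6, DLX3 and DLX5, Distal-less factors of ridge and mesenchyme, fell. DLX5 had 232, 193, 128 and 107 CPM (slope -0.39 ± 0.0380, adjusted p = 0.00051), DLX6 had 50.5, 35.7, 17.2 and 13 CPM (slope -0.69 ± 0.0620, adjusted p = 0.00044) and DLX3 went from 67.7 to 30.5 CPM. Of the 10 tested genes of the ridge list 4 fell and 3 rose, against 4.08% and 3.3% of all tested genes. The rising genes were SP9, TP63 and WNT7A. Without web 2 only 1 of the list rose. In the epidermis list of 16 tested genes 5 fell and 3 rose, with a median slope of 0.04. KRT15, a basal keratin, had 1558, 1005, 424 and 370 CPM and fell by 0.74 ± 0.0680 (adjusted p = 0.00046). GRHL3, a factor of barrier formation, had 41.0, 30.6, 16.7 and 14.3 CPM (slope -0.54 ± 0.0623, adjusted p = 0.0012), and the desmosome plaque protein PKP1 fell from 134 to 58.2 CPM. LAMA5, a chain of basement membrane laminin, rose from 199 to 343 CPM (adjusted p = 0.005). EPCAM, a surface marker of epithelia named after its values were seen, had 403, 357, 313 and 378 CPM and did not pass. The summed level of the list was 3917, 2953, 2282 and 2464 CPM, of which KRT15 was the largest part in web 1, and KRT19 was at 0 in every web. Of the 16 slopes 7 were negative and 9 positive, so the fall was that of some members and not of the whole list. A smaller share of a cell type in a pool and less RNA of the falling genes per cell cannot be told apart. This holds here and for other cell types below. Without web 4 none of the 3 rising epidermal calls held, with an adjusted p of 0.0537 for LAMA5. Without web 1 only 2 genes fell, with 0.0961 for PKP1, and with a robust prior KRT15 had 0.0578.

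Of 17 tested genes of cell death 1 rose and 2 fell, against 3.3% and 4.08% of all tested genes, with a median slope of 0.02. BMF, a pro-apoptotic BH3-only protein, had 129, 115, 78.3 and 73.0 CPM and fell by 0.30 ± 0.0429 (adjusted p = 0.0032). BCL2L1, an inhibitor of apoptosis, had 37.0, 42.7, 44.1 and 54.6 CPM and rose by 0.17 ± 0.0431 (adjusted p = 0.041), and the death-associated kinase DAPK2 fell from 4.91 to 1.21 CPM (adjusted p = 0.029). None of 10 tested genes of lysosomes and senescence passed, and LAMP1, a lysosomal membrane protein, had 310, 341, 338 and 342 CPM. No gene of 25 in the cell cycle list passed in edgeR, against 2 rising genes in DESeq2, and PCNA had 405, 466, 499 and 505 CPM (slope 0.11 ± 0.0338, adjusted p = 0.1). Leaving out web 1, web 2 or web 4 ended the calls of BCL2L1, at an adjusted p of 0.292, 0.0736 and 0.470, and of DAPK2, at 0.0843, 0.0649 and 0.333. In the fit over both limbs the adjusted p was 0.0787 for BCL2L1 and 0.0687 for DAPK2.

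Several matrix genes rose toward digit V. LUM, which encodes the small leucine-rich proteoglycan lumican, had 282, 411, 732 and 1429 CPM and rose by 0.79 ± 0.0430 (adjusted p = 4.0e-05). KERA, the related keratocan, had 82.8, 106, 172 and 234 CPM (slope 0.52 ± 0.0372, adjusted p = 0.00017), and the fibril-associated collagen COL14A1 had 313, 379, 542 and 764 CPM (slope 0.44 ± 0.0352, adjusted p = 0.00027). COL5A2 rose from 731 to 1291 CPM (adjusted p = 0.0028). Of 22 tested tendon and fibroblast genes 7 rose and 2 fell, against 3.3% and 4.08% of all tested genes. The list had a median slope of 0.07 and a summed level of 10738, 10727, 12113 and 14700 CPM. COL1A1, the main fibrillar collagen of connective tissue, named after its values were seen, had 1046, 866, 879 and 1258 CPM and did not pass (adjusted p = 0.51). The falling genes were the tendon factor MKX, with 54.7, 63.6, 40.4 and 9.91 CPM (adjusted p = 0.045), and the tendon membrane protein TNMD, with 2.14, 1.08, 0.0902 and 0.0919 CPM (adjusted p = 0.024). Among proteases and their inhibitors 4 of 13 rose and 1 fell, with a median slope of 0.06. The gelatinase MMP2 rose from 2901 to 4649 CPM (adjusted p = 0.0049) and its inhibitor TIMP3 from 80.4 to 142 CPM (adjusted p = 0.0045).

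Without web 4 the tendon and fibroblast list had 4 rising genes, and the adjusted p was 0.341 for MKX and 0.0988 for COL5A2. Without web 2 it was 0.0807 for MKX, which also lost its call in DESeq2 (0.130), with a robust prior (0.465), in the fit over both limbs (0.135), without a filter on low counts (0.055) and on the TPM scales (up to 0.0555). Without web 4 or without web 1 only 1 protease gene rose, with 0.174 and 0.0502 for MMP2 and 0.0703 and 0.111 for TIMP3. In the fit over both limbs no protease gene passed, with 0.0886 for MMP2 and 0.146 for TIMP3. On the log2(TPM + 1) scale 2 protease genes rose and none fell. LUM, KERA and COL14A1 kept their calls in all 14 alternatives.

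Cartilage and joint genes were mixed. Of 17 tested cartilage genes 1 rose and 2 fell, against 3.3% and 4.08% of all tested genes. The median slope was -0.15, and RUNX3 was the steepest of the 17. COL2A1, the fibrillar collagen of cartilage, had 159, 148, 176 and 262 CPM (adjusted p = 0.03), and the link protein HAPLN1 fell from 21.2 to 12.1 CPM (adjusted p = 0.026). Of 14 tested joint genes 3 rose and 3 fell, with a median slope of -0.13. ENPP2, the enzyme autotaxin, had 47.8, 56.2, 64.4 and 123 CPM and rose by 0.44 ± 0.0640 (adjusted p = 0.0037), and WNT9A and SFRP2 are the falling members with the lowest p. ERG, a factor of joint cartilage and endothelium, rose from 41.6 to 80.3 CPM (adjusted p = 0.0033). OTOR, a small secreted protein known from the inner ear and cartilage and in no list, was named after its values were seen. It had 118, 214, 470 and 780 CPM and rose by 0.93 ± 0.0406 (adjusted p = 1.8e-05). Without web 4 only 1 joint gene rose, and the adjusted p was 0.637 for COL2A1, 0.0932 for HAPLN1, 0.0992 for ENPP2 and 0.0707 for ERG. Without web 2 it was 0.0605 for COL2A1 and 0.0631 for HAPLN1, and without web 1 it was 0.230 for HAPLN1. Both calls also ended with all 4 libraries kept. For COL2A1 the adjusted p was 0.147 with a robust prior and 0.152 in limma on log2(TPM + 1). For HAPLN1 it was 0.134 on that scale and 0.254 in the fit over both limbs.

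Skeletal muscle genes were highest in web 1. Of 18 tested 15 fell and none rose, with a median slope of -0.80, against 4.08% falling among all tested genes. TNNI1, the slow troponin I, had 30.8, 9.64, 9.12 and 3.58 CPM and fell by 0.95 ± 0.116 (adjusted p = 0.0016). ACTA1, skeletal actin, had 130, 53.5, 44.0 and 25.7 CPM (slope -0.74 ± 0.0692, adjusted p = 0.00047). MYL4, a myosin light chain, had 110, 33.0, 32.1 and 16.3 CPM (slope -0.85 ± 0.104, adjusted p = 0.0016), and ACTN2 of the Z disc had 21.7, 8.54, 6.65 and 3.82 CPM (slope -0.80 ± 0.0943, adjusted p = 0.0013). All 4 dropped from web 1 to web 2, stood close together in webs 2 and 3 and dropped again in web 4. The median steps of the list were -1.71, -0.02 and -0.78 log2 units, and its summed level was 1107, 379, 357 and 239 CPM. The factor MYOG of differentiating myoblasts, named after its values were seen, had 5.09, 1.41, 1.57 and 0.919 CPM (adjusted p = 0.038). PAX3 and PAX7, which mark muscle progenitors and were likewise named afterwards, had 7.80, 7.83, 8.20 and 6.95 CPM and 1.73, 0.513, 1.23 and 1.43 CPM and did not pass. Without web 1 only 1 of the 18 genes fell, and the adjusted p was 0.128 for TNNI1, 0.0808 for MYL4 and 0.115 for ACTN2. In the fit over both limbs 1 fell, with a robust prior 8 and on the log2(TPM + 1) scale 9.

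Blood and immune genes were also highest in web 1. HBZ, an embryonic globin, had 1296, 869, 845 and 658 CPM and fell by 0.30 ± 0.0433 (adjusted p = 0.0034). The red cell membrane proteins SLC4A1 and RHAG fell too, from 26.3 to 9.25 CPM and from 18.7 to 8.66 CPM (adjusted p = 0.0086 and 0.0097). Of 4 tested red cell genes 3 fell, with a summed level of 1348, 902, 874 and 678 CPM and a median slope of -0.38, and without web 1 none fell, with an adjusted p of 0.0933 for HBZ, 0.329 for SLC4A1 and 0.167 for RHAG. Without web 4 it was 0.0605 for SLC4A1 and 0.0523 for RHAG. Of 13 macrophage and leukocyte genes 2 fell and none rose, against 4.08% and 3.3% of all tested genes. The median slope was -0.25, and the summed level was 253, 190, 134 and 171 CPM. CSF1R, the receptor for the macrophage growth factor CSF1, had 52.0, 36.0, 25.1 and 30.3 CPM (adjusted p = 0.048), and LCP1, an actin-bundling protein of leukocytes, fell from 24.2 to 10.8 CPM (adjusted p = 0.015). Without web 1 the adjusted p was 0.700 for CSF1R and 0.467 for LCP1, and without web 2 it was 0.0799 for CSF1R. Without web 4, however, 6 genes of this list fell. None of them fell on the TPM scales or in the fit over both limbs, where the adjusted p was 0.154 for CSF1R and 0.0565 for LCP1. CSF1R also lost its call with a robust prior (0.0869), with DESeq2 size factors (0.0507) and without a filter on low counts (0.0589). No red cell gene fell in the fit over both limbs either.

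Of 16 tested endothelial genes 3 fell and 1 rose, against 4.08% and 3.3% of all tested genes, with a median slope of -0.14. The rising gene was ERG, and the summed level of the list was 257, 265, 265 and 243 CPM. CDH5, the cadherin of vessel walls, had 52.4, 52.7, 45.1 and 32.5 CPM (adjusted p = 0.037). PROX1, which marks lymphatic endothelium, fell from 6.40 to 1.82 CPM (adjusted p = 0.027) and SOX18 from 27.0 to 17.4 CPM (adjusted p = 0.04). No falling call held without web 2 or without web 4, with an adjusted p of 0.0742 and 0.533 for CDH5, and without web 1 only 1 gene fell. The median slope of the endothelial list was 0.06 without web 4, and none of its genes fell in the fit over both limbs. None of 11 nerve and Schwann cell genes passed in edgeR, against 1 in limma-voom, and SOX10 of glia and pigment cells had 11.5, 10.3, 7.84 and 6.87 CPM (adjusted p = 0.083). Of 11 pigment cell genes DCT, an enzyme of melanin synthesis, fell from 7.27 to 2.52 CPM (adjusted p = 0.025), and its adjusted p was 0.0599 without web 1, 0.0514 without web 2 and 0.262 without web 4. Of 13 immediate early genes 6 fell and none rose, against 4.08% and 3.3% of all tested genes, with a median slope of -0.20. FOSL2, a partner in the AP-1 complex, had 27.0, 25.4, 17.3 and 13.3 CPM (adjusted p = 0.0088), and the nuclear receptor NR4A1 fell from 22.5 to 10.2 CPM (adjusted p = 0.014). Without web 1 only 1 of these 6 fell and without web 4 only 2, with 0.318 for NR4A1 and 0.105 for FOSL2. In limma on log2(TPM + 1) 1 gene of the list fell, with an adjusted p of 0.0722 for FOSL2 and 0.0555 for NR4A1.

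**Figure D4:**
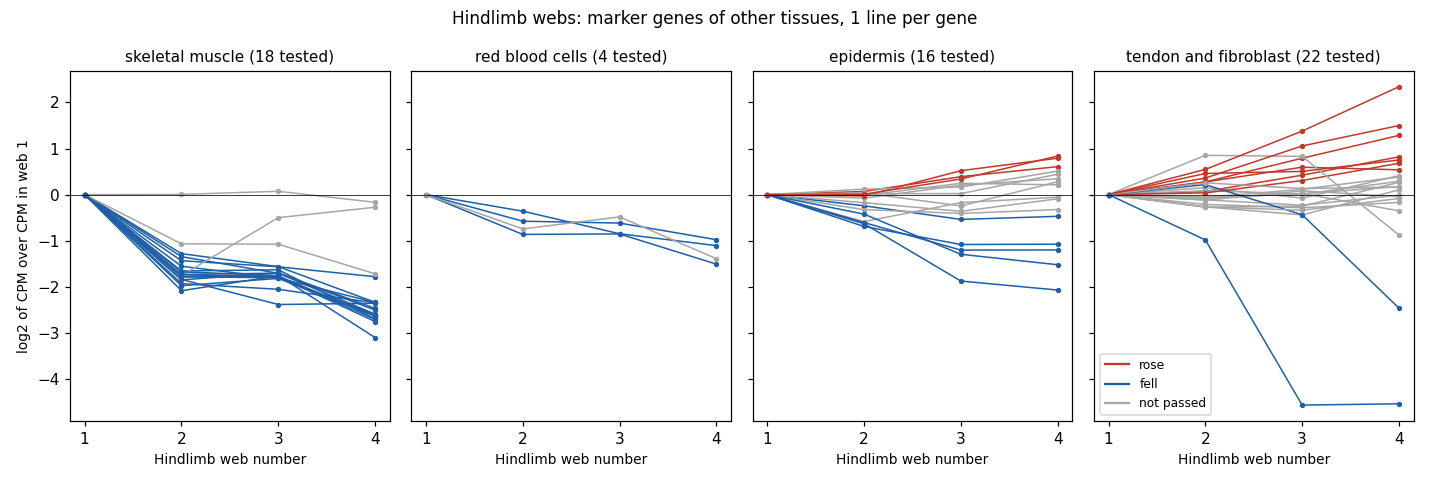
Change from web 1 in log2 units of CPM for each tested gene of 4 lists against hindlimb web number, 1 line per gene, coloured by the outcome of the slope test. The 15 falling muscle genes drop together at web 2 and again at web 4, and 3 of the 4 red blood cell genes have smaller drops at the same steps, while epidermal and connective tissue genes spread to both sides.

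The summed levels of the muscle, red cell, macrophage and epidermis lists were thus highest in web 1, in the same 4 libraries as the patterning genes, although 9 of 16 epidermal slopes were positive and 2 of 13 macrophage genes passed. Their part in the other falling slopes was not tested. Over the 3 steps in order RUNX3 changed by -1.04, -1.45 and -1.51 log2 units and LHX9 by -1.70, -1.29 and -0.04. MSLN changed by -1.13, -4.13 and -0.01, and KRT15 by -0.63, -1.24 and -0.20. The median steps were -1.71, -0.02 and -0.78 for the muscle list and -0.35, -0.49 and 0.27 for the macrophage list.

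Each step between neighbouring webs was described by its difference in log2 CPM, with no test, since it compares 1 library with 1 library. From web 1 to web 2, 388 genes (2.68%) were at least 2-fold higher and 692 (4.78%) at least 2-fold lower. From web 2 to web 3 there were 482 (3.33%) higher and 660 (4.56%) lower, and from web 3 to web 4 there were 429 (2.96%) higher and 681 (4.7%) lower. Most of these genes were of low abundance: the 2223 genes past 2-fold at any step had a median of 0.637 CPM, against 20.3 CPM for all tested genes. Among the 10391 genes with a mean of at least 5 CPM there were 24 higher and 60 lower at the first step, 24 and 66 at the second and 25 and 56 at the third. Of the 2223 genes 265 (11.9%) had a slope that passed.

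Among genes with a passing slope the step from web 2 to web 3 was most often the largest. It was so in 47.3% of the rising and 48% of the falling genes, against 33% of all tested genes. The rising genes had median steps of 0.21, 0.33 and 0.23 log2 units, and the falling genes of -0.39, -0.45 and -0.28. A line fitted on 4 points gives the middle step more weight than the outer ones, so these shares describe the genes that passed and carry no test.

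The largest single steps are given among genes with a symbol, at least 5 CPM in the higher web and at least 1 CPM in the lower web. From web 1 to web 2 the metabotropic glutamate receptor GRM3 went from 4.37 to 18.2 CPM, held 19.3 CPM in web 3 and stood at 7.13 CPM in web 4. PHACTR1, an actin regulator, had 8.28, 23.2, 25.5 and 10.1 CPM, so that both genes were highest in the middle webs. The largest drops at that step were those of the muscle genes CAV3, CASQ2 and MYL3, and MYL3 had 13.2, 2.82, 2.45 and 1.89 CPM. From web 2 to web 3 PHEX, HOXD11 and GRIA2 gained most among these genes, by 2.54, 2.48 and 1.62 log2 units. FSTL4 lost most among them, with a step of -2.68, followed by MAB21L1, a gene of limb and eye, which had 13.3, 8.71, 1.86 and 4.74 CPM. From web 3 to web 4 the chromatin protein HMGA2 went from 2.43 to 8.68 CPM and PAMR1 from 4.96 to 16.0 CPM, while SYT1, a synaptic vesicle protein, went from 7.72 to 1.38 CPM and MKX from 40.4 to 9.91 CPM. FDPS, an enzyme of isoprenoid synthesis, alternated with 2.58, 8.76, 1.97 and 6.01 CPM and appeared at all 3 steps.

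The forelimb webs gave the same measurement in separate libraries, each from 20 embryos, which may be the same as those of the hindlimb pools. Of the rising hindlimb genes 477 were also tested in the forelimb, and 463 of them had a forelimb slope above 0, with a median of 0.20. Of 587 falling genes 553 had a forelimb slope below 0, with a median of -0.33. The median forelimb slope of all genes tested in both limbs was 0.0007. The share of all these genes with the same sign in both limbs was not computed. In the forelimb's own fit 309 of 14544 genes passed. The difference between the hindlimb and forelimb slopes was tested in 14999 genes, and 0 (0%) passed edgeR at an adjusted p of 0.05, the lowest being 0.998, while 581 had an unadjusted p under 0.05. DESeq2 called 2 genes for the difference, TNNT1 and a gene without a symbol. Without forelimb web 1 edgeR called TBX4, and without forelimb web 4 it called ND4L and a gene without a symbol. HOXD10 had slopes of 1.07 ± 0.152 in the hindlimb and 1.08 ± 0.174 in the forelimb, and DLX6 had -0.69 in each limb.

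Muscle and red cell genes lay apart from that pattern without passing the test in edgeR. The muscle troponin gene TNNT1, which DESeq2 called, is not in the muscle list. All 18 tested muscle genes had a lower slope in the hindlimb than in the forelimb, with a median difference of -0.58, and the forelimb median was -0.14. Other lists were also one-sided, with smaller median differences. The hindlimb slope was lower in 23 of 25 cell cycle genes (median difference -0.07). It was lower in 0 of 13 macrophage genes (0.12) and 1 of 16 epidermis genes (0.14). The share of all tested genes with a lower hindlimb slope was not computed. Members of a list were read in the same libraries and are not replicates of each other. TNNI1 had a difference of -0.97 ± 0.269 and MYL3 of -1.07 ± 0.270, and neither passed (adjusted p = 0.998 each). At the last step TNNI1 changed by -1.34 log2 units in the hindlimb and by 1.54 in the forelimb. The 4 red cell genes had a median slope of -0.38 in the hindlimb and 0.15 in the forelimb.

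**Figure D5:**
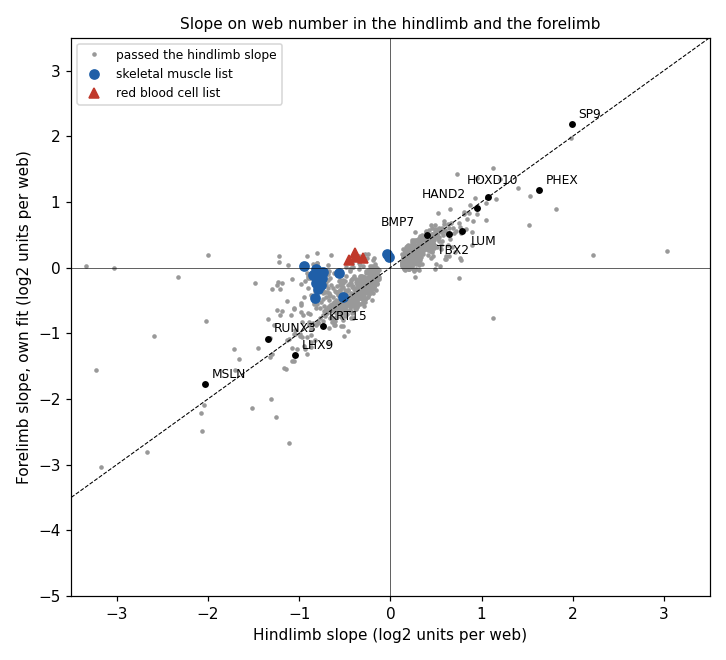
Forelimb slope against hindlimb slope, both in log2 units per web, for 1064 genes that passed the hindlimb test (grey), with the skeletal muscle list (blue) and red blood cell list (red) and 11 named genes in black; the dashed line marks equal slopes. The 11 named genes have the same sign in both limbs, at varied distances from the line, with PHEX at 1.63 in the hindlimb and 1.18 in the forelimb. The median forelimb slope is -0.14 for the muscle list and 0.15 for the red cell list.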

How the data were processed

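Total RNA of pooled interdigital tissue was extracted on columns with DNase, made into NEBNext Ultra libraries and sequenced as paired-end Illumina reads, per the labels' protocols. The authors deposited a table of counts per gene and a table of TPM per gene that also gives symbols. HISAT2 2.2.1 and StringTie 2.1.7 were used, per the submitters' processing notes; the build, annotation and strand setting are not given in the sources used here, so overlapping and antisense genes cannot be told apart, and near-identical copies may share counts. The deposited counts are whole and not normalised. Of 20472 counts from 1 to 40, 35.5% were multiples of 4, so counts are not taken as independent read pairs, and counting intervals are omitted. Deposited TPM values are scaled for length and to a fixed total.

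The analysis ran in edgeR 4.0.16 under R 4.3.3. The filter filterByExpr, at a minimum count of 10 and a minimum total of 15, kept 14478 genes of the 19328 listed; 3930 (27.1%) have no symbol and 26 share one. TMM factors were 0.982 to 1.02. The slope was tested with edgeR's quasi-likelihood test on the 4 hindlimb libraries, with Benjamini-Hochberg adjustment over all genes at 0.05, and the difference of slopes on all 8 libraries with 4 residual degrees of freedom. Steps are differences of log2 CPM (prior count 2). SE is the absolute slope over the square root of F. Alternatives used DESeq2 1.42.0, limma 3.58.1, other scalings, filters and priors, and each library left out. The tests were tried on simulated counts.

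The genes and 29 lists were chosen with earlier results of these data known. Named genes were the 10 steepest per direction with a symbol and a mean of at least 2 CPM, up to 4 members per list that passed (where there were none, the 2 with the highest CPM), the 3 largest steps per direction among genes with at least 5 CPM in the higher and 1 CPM in the lower web, the 3 lowest p for the difference of slopes, and a fixed set of limb genes. Not every gene so named is described.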

Additional observations from a re-analysis of the deposited data

Results flagged for a closer look

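In 2 named genes every step along the webs ran in opposite directions in the limbs. PNKD had a slope of 0.26 log2 units per web in the hindlimb and -0.38 in the forelimb, and SYT14 had -0.51 and 0.32. Neither difference of slopes passed (Benjamini-Hochberg adjusted p = 0.998 each in edgeR's quasi-likelihood test), and neither gene passed the hindlimb slope. Of 14226 genes with forelimb steps, 25 showed such opposite steps and 0 of them had a hindlimb slope that passed.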

How the results depend on the processing

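Against 1068 slopes that passed (478 rising, 590 falling), limma on log2(TPM + 1) gave 651 (213 rising), limma on log2(TPM + 0.1) gave 622 (207 rising), and a fit over both limbs gave 456 (199 rising, 257 falling), of which 453 were among the 1068. Leaving out each library gave 416 to 1261 genes, with 206 to 549 rising and 210 to 712 falling. With library size alone 381 rose and 655 fell, so that 36.8% of calls were rising. The cause of these shifts was not tested. Of 104 named genes that passed, 104 kept their sign and 29 kept their call in every alternative that tested them. For the difference of slopes, against 0 genes, DESeq2 called 2 and web number as a replicate block 1 (ND4L), and leaving out each library gave 0 to 2. Genes past 2-fold at the first step numbered 247 higher with a prior count of 10. On log2(TPM + 1) the 3 steps had 71 higher and 194 lower (265), 82 and 128 (210), and 66 and 110 (176). With a mean of at least 5 CPM they had 24 and 60 (84), 24 and 66 (90), and 25 and 56 (81). Among the 129 named genes, those whose slope changed sign when 1 library was left out had not passed. Over the 4 such fits the lowest and highest slopes were -0.27 and 0.16 for ALDH1A2, -0.048 and 0.11 for BMP4, -0.28 and 0.35 for FDPS, -0.66 and 1.04 for GRM3, -0.40 and 0.33 for HMGA2, -0.030 and 0.17 for HOXA3, -0.0087 and 0.11 for HOXD13, -0.31 and 0.52 for PAMR1, -0.59 and 0.80 for PHACTR1, -0.26 and 0.14 for RARB, -0.0090 and 0.12 for RRM1, -1.17 and 0.063 for SMIM1, and -0.15 and 0.00057 for TBX4. With 1 library per web and 2 residual degrees of freedom, no value here measures the spread between animals.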
